A study of Mus musculus with 50 samples.

Results

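Endocannabinoid signalling was described by 8 genes: the receptor gene *Cnr1*, the 2-AG synthases *Dagla* and *Daglb*, the 2-AG hydrolases *Mgll*, *Abhd6* and *Abhd12*, and the anandamide enzymes *Napepld* (synthesis) and *Faah* (hydrolysis). They were taken by symbol from the deposited count tables, each of which lists 24552 genes and all 8 members, and each member passed the filter on low counts in every model. Their raw counts ran from 86 for *Napepld* to 7910 for *Abhd12* in a library, so that *Napepld* is measured with the fewest reads.

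The study isolated ribosome-bound mRNA from the nucleus accumbens (NAc) with RiboTag (RT) mice, in which cells with Cre recombinase make an HA-tagged ribosomal protein that can be immunoprecipitated (IP). Of the 50 libraries used here, 13 were D1 IPs (4 Con, 4 Res, 5 Sus), 15 were D2 IPs (5 per stress group), 18 were inputs (3 per line and stress group) and 4 were control D1 IPs labelled Sirt1-KO. The mice were C57BL/6 and 8 to 12 weeks old in the IP and input groups, of genotype RT; D1-Cre or RT; D2-Cre, and every library came from the pooled NAc of 2 mice. Con mice were not defeated, and Res and Sus mice were sorted by a social interaction test after up to 10 days of social defeat by a CD1 aggressor. The libraries labelled Sirt1-KO came from undefeated male mice of genotype RT; Sirt1-floxed; D1-Cre, whose age the labels do not give. All lines carry the RT allele, and Cre came from bacterial artificial chromosome transgenes with D1 or D2 receptor gene regulatory sequences, so an IP holds whatever Cre-positive cells the tissue punches contained. The input is leftover supernatant of the homogenate from which the IP of the same number was made, and it holds RNA of all cells.

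Endocannabinoids are lipid messengers made on demand in postsynaptic neurons, which act backwards across the synapse on the presynaptic CB1 receptor to reduce transmitter release. 2-AG is made from diacylglycerol, which arises after Gq-coupled receptors activate phospholipase C beta, and is cleared mainly by monoacylglycerol lipase, whereas anandamide is released from a phospholipid precursor and is cleared by fatty acid amide hydrolase. In the striatum, CB1 is made by medium spiny neurons (MSNs) and by cortical neurons that project there, and 2-AG takes part in long-term depression of excitatory inputs to MSNs.

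The genes lie on 6 chromosomes of the mouse genome (GRCm38, GENCODE vM21). *Cnr1* lies at chr4:33924593-33948831 (+) and *Faah* at chr4:115967145-116017926 (-). *Mgll* lies at chr6:88724412-88828360 (+), *Dagla* at chr19:10245265-10304877 (-) and *Daglb* at chr5:143464584-143505942 (+). *Abhd6* lies at chr14:8002902-8056763 (+), *Abhd12* at chr2:150832493-150904741 (-) and *Napepld* at chr5:21662901-21701396 (-). *Daglb* overlaps *Rac1* on the other strand, and *Mgll*, *Dagla*, *Abhd12* and *Napepld* overlap small or non-coding genes. The library kit keeps the strand, but the strand setting of the counting is not given in the sources used here, so reads in those overlaps could be shared. The promoters of 3 genes on which the D1 to D2 comparison turns are printed, because these genes differed between the lines and not all in the same direction. Each is the 250 bases before the most upstream RefSeq start (GRCm38.p6), 5′ to 3′ on the gene's own strand, with GC boxes (GGGCGG on either strand) in capitals. The windows are chr4:33924014-33924263 for *Cnr1*, chr4:116017925-116018174 for *Faah* and chr6:88724162-88724411 for *Mgll*.
Cnr1: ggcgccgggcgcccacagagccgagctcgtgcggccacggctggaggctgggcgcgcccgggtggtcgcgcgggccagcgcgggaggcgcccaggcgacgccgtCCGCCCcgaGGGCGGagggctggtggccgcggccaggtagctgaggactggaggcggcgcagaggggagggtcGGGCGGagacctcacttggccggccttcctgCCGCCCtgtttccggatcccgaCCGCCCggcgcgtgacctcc
Faah: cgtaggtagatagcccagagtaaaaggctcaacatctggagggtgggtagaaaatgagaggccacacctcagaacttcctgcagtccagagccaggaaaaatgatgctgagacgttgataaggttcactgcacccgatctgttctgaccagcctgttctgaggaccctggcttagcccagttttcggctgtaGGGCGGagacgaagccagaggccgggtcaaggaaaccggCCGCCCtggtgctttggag
Mgll: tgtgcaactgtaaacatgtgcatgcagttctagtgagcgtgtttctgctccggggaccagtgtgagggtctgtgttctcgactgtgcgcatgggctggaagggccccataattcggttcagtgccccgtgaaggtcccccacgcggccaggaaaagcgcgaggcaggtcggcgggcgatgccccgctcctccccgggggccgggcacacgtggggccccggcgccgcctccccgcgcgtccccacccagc
The *Cnr1* window held 5 GC boxes and was 79.2% G or C, the *Faah* window held 2 and was 55.6%, and the *Mgll* window held none and was 68.0%. Over 27025 promoter windows of that length, 33.0% held a GC box and the median content was 52% G or C. CCAAT (34.5% of windows), TATAAA (13.0%) and TGACGTCA (1.6%) were also searched on both strands, and none of them occurred in these 3 windows. RefSeq windows were matched for 6 of the 8 genes, and those of *Dagla* and *Abhd12* are not shown.

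Total counts on genes ran from 21591075 to 31009626 in the IPs and from 18384265 to 28179940 in the inputs. The 4 libraries labelled Sirt1-KO held 22174187 to 31785984. The lines matched their labels: the 4 D1-MSN markers *Drd1*, *Pdyn*, *Tac1* and *Chrm4* were all higher in D1 IPs than in D2 IPs (median log2 fold change 1.07) and the 4 D2-MSN markers *Drd2*, *Adora2a*, *Gpr6* and *Penk* were all lower (median -1.48). In the IPs of their own line, the D1-MSN markers summed to 1101 to 1553 CPM and the D2-MSN markers to 5646 to 7998 CPM. Markers of the other type were present as well. The D2-MSN markers summed to 2061 to 3470 CPM in D1 IPs and 776 to 1324 CPM in D1 inputs. The D1-MSN markers summed to 396 to 638 CPM in D2 IPs and 465 to 597 CPM in D2 inputs. The summed level of the 6 astrocyte markers was 37.9 to 95.8 CPM in the IPs and 791 to 1010 CPM in the inputs. A list of 4 cortical excitatory neuron markers (*Slc17a7*, *Tbr1*, *Neurod6* and *Neurod2*) was not near 0 in the IPs, and its summed level was 387 to 1390 CPM in D1 IPs and 20.6 to 309 CPM in D2 IPs. These 2 ranges did not overlap. 

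Compared per length of all annotated exons of a gene, *Abhd12*, which hydrolyses lysophosphatidylserine as well as 2-AG, had the highest level of the 8 genes in IPs and inputs of both lines. Levels per length are CPM (counts scaled to a common library size by the trimmed mean of M values, TMM) divided by the kilobases of annotated exons. On that scale *Abhd12* stood at 86.7 ± 3.43 (SD, n = 13) in D1 IPs and 75.6 ± 3.04 (SD, n = 15) in D2 IPs, and *Mgll* came next at 30.1 ± 2.43 and 35.4 ± 3.35. *Cnr1* was at 25.6 ± 4.24 in D1 IPs, where its range overlapped those of *Mgll*, *Abhd6* and *Dagla*, and at 13.9 ± 1.48 in D2 IPs, where it held rank 5 in place of rank 3 and its range overlapped that of *Dagla*. *Abhd6* was at 21.9 and 19.7 and *Dagla* at 17.9 and 15.6 CPM per kb in D1 and D2 IPs. *Faah* followed at 6.02 and 3.49, *Daglb* at 3.69 and 3.35, and *Napepld* was lowest at 1.95 and 1.29. The ranges of *Faah* and *Daglb* overlapped in both lines. In the inputs *Cnr1* kept rank 3, at 21.9 CPM per kb in the D1 line and 23.7 in the D2 line.

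**Figure D1:**
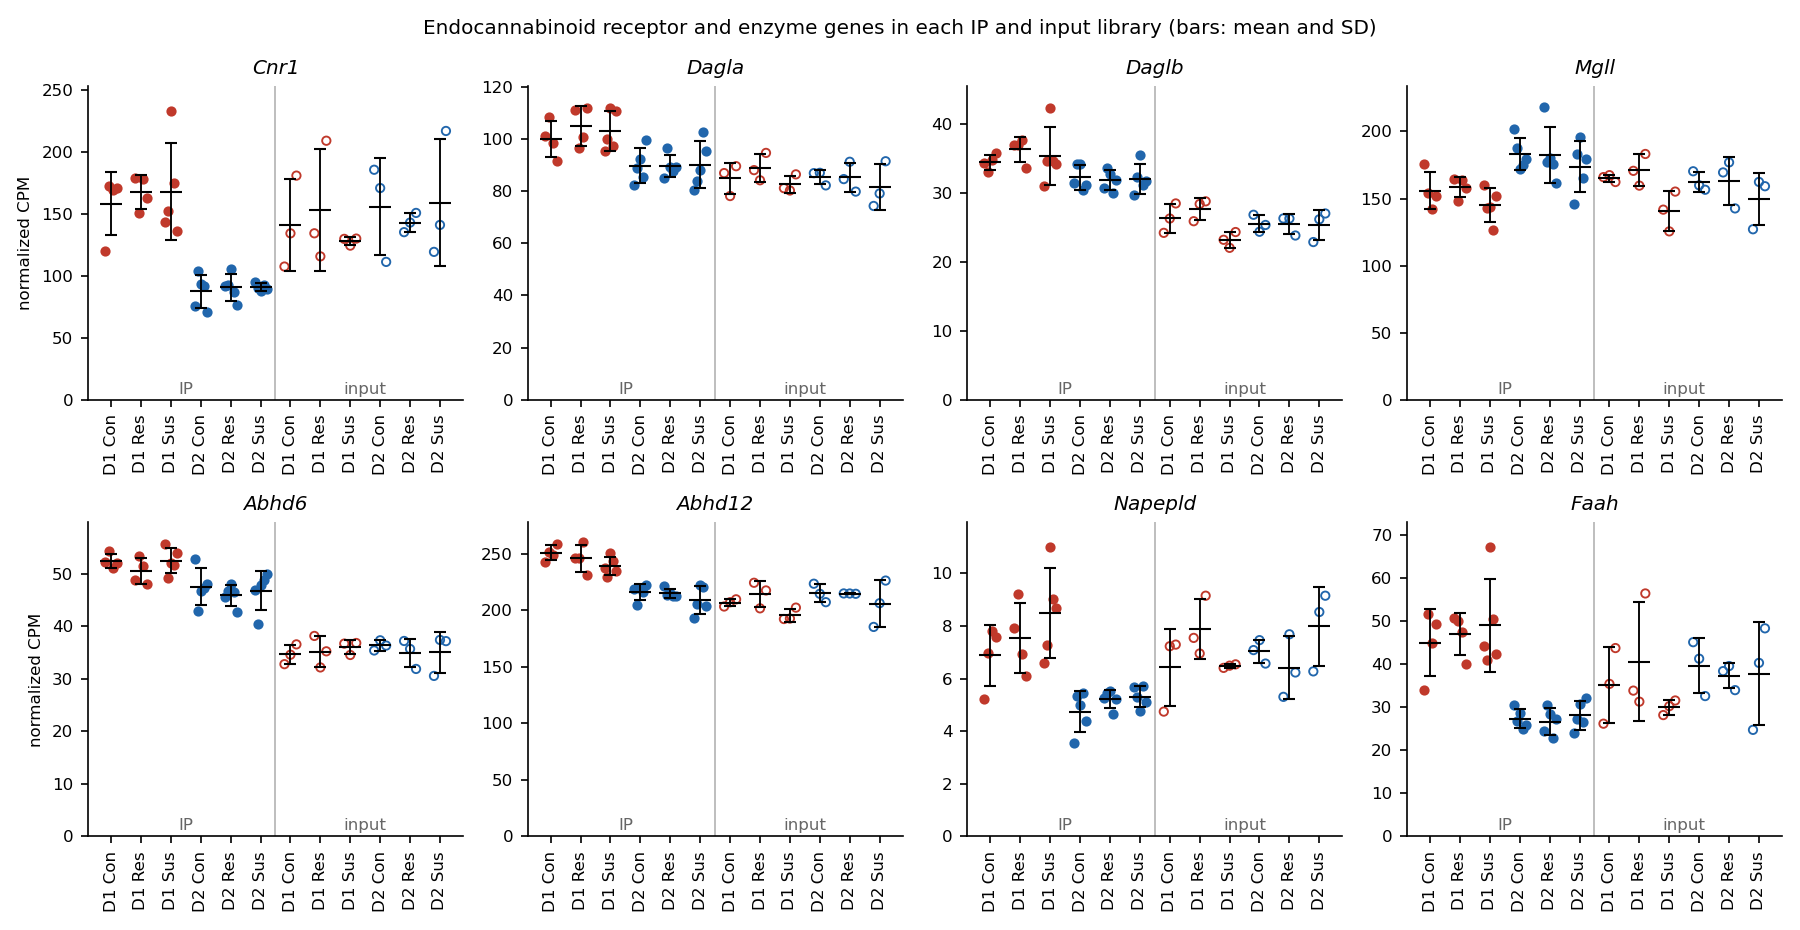
Normalized level (CPM, y axis from 0) of each of the 8 genes in every IP library (filled points) and input library (open points) by line and stress group, with the mean and SD of each group. *Cnr1* and *Faah* are higher in all 13 D1 IPs than in all 15 D2 IPs, the *Mgll* ranges of the lines overlap, and the stress groups of the IPs of a line overlap for every gene.

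All 8 genes differed between D1 IPs and D2 IPs, 7 of them being higher in D1 IPs and *Mgll* lower. The test was edgeR's quasi-likelihood test over all 28 IPs with Benjamini-Hochberg adjustment over 14224 genes, at an adjusted p under 0.05. That rule called 40.8% of all genes tested, 19.6% being higher in D1 IPs and 21.3% lower. The median log2 fold change was 0.18 over the 8 genes and -0.02 over all genes. With a fold change over 1.5 required as well, which 7.66% of all genes met, *Cnr1* and *Faah* were called. The ranges of the D1 and D2 IPs did not overlap for 3 of the 8 genes, *Cnr1*, *Faah* and *Abhd12*, and for 2.82% of all genes tested.

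*Cnr1*, which encodes the CB1 receptor, was the member that differed most. Its level in D1 Con IPs was 120.0, 172.8, 169.8 and 171.2 CPM, in D1 Res IPs 179.2, 150.9, 178.1 and 162.8 CPM, and in D1 Sus IPs 143.3, 152.8, 233.4, 175.4 and 136.4 CPM. In D2 Con IPs it was 75.8, 104.4, 93.9, 92.2 and 71.3 CPM, in D2 Res IPs 92.1, 92.7, 105.9, 87.0 and 76.4 CPM, and in D2 Sus IPs 95.5, 90.3, 87.5, 92.9 and 89.2 CPM. The lowest D1 IP, a Con library, lay above the highest D2 IP, a Res library, so that the lines did not overlap. The mean of D1 IPs was 165.1 CPM ± 27.3 (SD, n = 13) and that of D2 IPs was 89.8 CPM ± 9.57 (SD, n = 15), which gave a log2 fold change of 0.86 (SE 0.072, 95% interval 0.72 to 1.01) with an edgeR adjusted p of 1.03e-10. By the size of its log2 fold change it was within the highest 3.91% of the 14224 genes.

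Among the 2-AG synthases, *Dagla*, the main synthase at adult synapses, ran from 91.5 to 111.9 CPM (median 100.9) in D1 IPs and from 80.3 to 102.6 CPM (median 88.9) in D2 IPs. The lines overlapped, with a log2 fold change of 0.18 (SE 0.040, edgeR adjusted p = 0.000569). *Daglb*, its paralogue, ran from 30.9 to 42.3 CPM (median 34.6) in D1 IPs and from 29.7 to 35.5 CPM (median 31.6) in D2 IPs. It also overlapped, with a log2 fold change of 0.13 (SE 0.039, edgeR adjusted p = 0.00809), the smallest difference of the 8 genes.

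*Mgll*, which encodes monoacylglycerol lipase, was the 1 member with a lower level in D1 IPs. It ran from 126.9 to 175.4 CPM (median 152.0) in D1 IPs and from 146.0 to 218.1 CPM (median 179.2) in D2 IPs. The ranges overlapped although the means, 152.6 CPM ± 12.4 (SD, n = 13) and 179.9 CPM ± 17.0 (SD, n = 15), differed by a log2 fold change of -0.25 (SE 0.046, edgeR adjusted p = 8.45e-05). The other 2-AG hydrolases went the opposite way. *Abhd12* ran from 229.7 to 260.5 CPM (median 245.7) in D1 IPs and from 192.9 to 222.5 CPM (median 215.0) in D2 IPs, without overlap (log2 fold change 0.19, SE 0.024, edgeR adjusted p = 4.19e-07). *Abhd6*, a membrane hydrolase of postsynaptic sites, ran from 48.1 to 55.6 CPM (median 52.0) in D1 IPs and from 40.4 to 52.8 CPM (median 46.8) in D2 IPs, with overlap (log2 fold change 0.14, SE 0.033, edgeR adjusted p = 0.00161).

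For anandamide, the hydrolase gene *Faah* ran from 34.0 to 67.2 CPM (median 47.5) in D1 IPs and from 22.8 to 32.2 CPM (median 27.2) in D2 IPs. Every D1 IP lay above every D2 IP, with a log2 fold change of 0.77 (SE 0.071, 95% interval 0.62 to 0.91, edgeR adjusted p = 8.62e-10). The synthase gene *Napepld* ran from 5.21 to 10.99 CPM (median 7.56) in D1 IPs and from 3.56 to 5.73 CPM (median 5.27) in D2 IPs. Only its lowest D1 IP, the Con library of replicate 1, fell inside the D2 range, and the log2 fold change was 0.57 (SE 0.083, edgeR adjusted p = 2.78e-06).

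**Figure D2:**
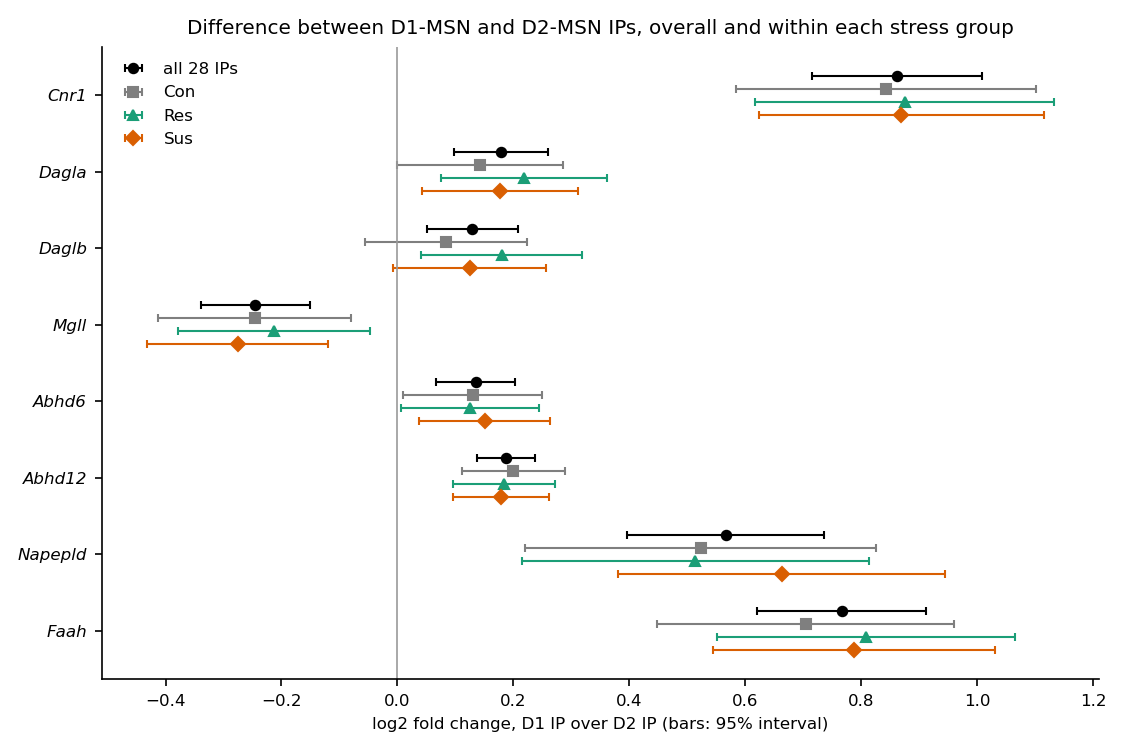
Log2 fold change of D1 IPs over D2 IPs for each gene, over all 28 IPs and within Con, Res and Sus libraries, with bars giving the 95% interval of the edgeR estimate. *Cnr1* is at 0.86 over all IPs and between 0.84 and 0.87 within the stress groups, and *Mgll* is the gene to the left of 0.

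Within each stress group alone, 5 of 8 genes were called, where the same rule called 14.0% of all genes in Con, 17.5% in Res and 17.6% in Sus. With a fold change over 1.5 required as well, 2 members were called in Con (4.98% of all genes), 2 in Res (5.52%) and 3 in Sus (5.55%). *Cnr1*, *Faah*, *Napepld* and *Abhd12* were called in each group, with log2 fold changes of 0.84, 0.87 and 0.87 for *Cnr1* in Con, Res and Sus and of 0.70, 0.81 and 0.79 for *Faah*. *Napepld* had 0.52, 0.51 and 0.66, and its call was lost in Con without D1 Con IP replicate 3 or 4 and in Res without D1 Res IP replicate 2. *Mgll* was called in Con (-0.25) and Sus (-0.28) but not in Res (-0.21, edgeR adjusted p = 0.068), and *Dagla* in Res (0.22) but not in Con (0.14, edgeR adjusted p = 0.188) or Sus (0.18, edgeR adjusted p = 0.063). The Con call of *Mgll* was lost without D1 Con IP replicate 2, 3 or 4 or D2 Con IP replicate 1, 2 or 5, and the Res call of *Dagla* without replicate 1 or 4 of the D1 Res or D2 Res IPs. For *Mgll* in Con the call was lost in 8 of 35 alternatives, of which 6 were these left-out libraries. Calls not made here were gained in 12 of 35 alternatives for *Dagla* in Sus and 9 for *Abhd6* in Sus. They were gained in 4 for *Daglb* in Res, 3 for *Mgll* in Res and 1 for *Abhd6* in Con. Whether the differences between lines depended on stress is given by the interaction terms below.

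The cortical excitatory marker list moved with this comparison. All 4 of its genes were higher in D1 IPs, with log2 fold changes from 1.62 to 2.23 (median 2.02), and its summed level did not overlap between the lines. On the log2 scale, across the 13 D1 IPs, which share a line but not a pool, its sum had a Pearson r of 0.88 with *Faah*, 0.80 with *Napepld*, 0.71 with *Cnr1* and -0.54 with *Mgll*. Across the 15 D2 IPs r was 0.59 with *Faah*, 0.19 with *Cnr1*, 0.09 with *Napepld* and 0.53 with *Mgll*, the last being of the opposite sign to that in D1 IPs. *Dagla* and *Daglb* had 0.57 and 0.61 in D2 IPs and 0.12 and 0.48 in D1 IPs. The D1 IP with the lowest cortical sum (387 CPM) was D1 Con replicate 1, in which *Cnr1* was at 120.0 CPM, *Faah* at 34.0 CPM and *Napepld* at 5.21 CPM. The D2 IP with the highest sum (309 CPM) was D2 Sus replicate 5, in which *Cnr1* was at 89.2 CPM, *Faah* at 32.2 CPM and *Napepld* at 5.10 CPM. These are single libraries at the ends of their groups, and no comparison rests on them. At the other end, D1 Sus replicate 3 had the highest sum (1390 CPM) and the highest *Cnr1* (233.4 CPM), *Faah* (67.2 CPM) and *Napepld* (10.99 CPM) of all IPs. The part of these cells in the D1 to D2 differences was not tested, and in bulk RNA fewer cells of a type and less RNA per cell cannot be told apart.

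**Figure D3:**
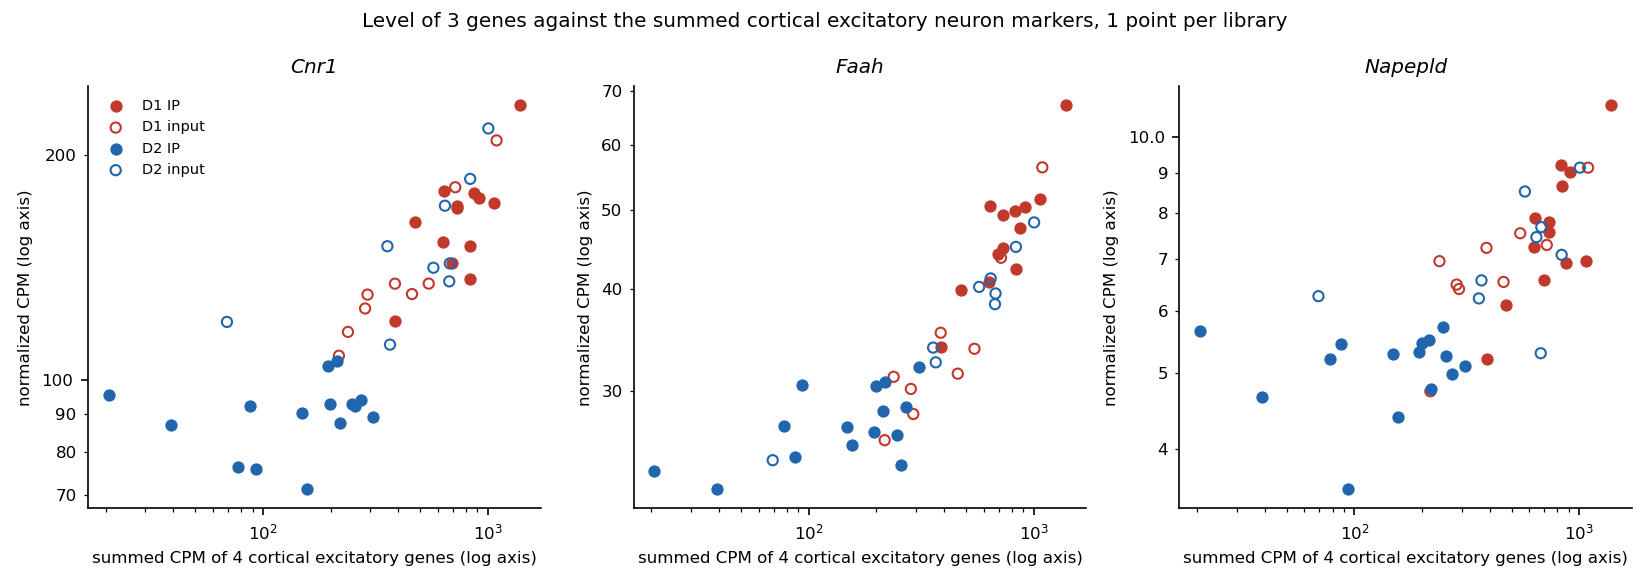
Level of *Cnr1*, *Faah* and *Napepld* (CPM, log axis) against the summed CPM of 4 cortical excitatory neuron markers (log axis), 1 point for each of the 46 IP and input libraries. D1 IPs lie between 387 and 1390 CPM on the x axis and D2 IPs between 20.6 and 309 CPM, and libraries with a higher sum have higher *Faah* among IPs and among inputs.

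Other marker lists also differed between the lines. The 4 general MSN markers were lower in D1 IPs (median log2 fold change -0.35), with a summed level of 3050 to 4711 CPM against 4284 to 5647 CPM in D2 IPs. Within D1 IPs the r of their sum was -0.87 with *Faah*, -0.83 with *Cnr1*, -0.80 with *Napepld* and 0.64 with *Mgll*. Within D2 IPs it was 0.34 with *Faah*, -0.16 with *Cnr1*, -0.37 with *Napepld* and 0.56 with *Mgll*, so that *Faah* had the opposite sign there. Of the 4 cholinergic interneuron markers 3 were lower in D1 IPs, with a summed level of 7.62 to 29.1 CPM against 56.2 to 120.5 CPM, and 6 of 6 astrocyte markers were higher (median 0.49). The part of these cells was not tested either.

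The ratio of 2 genes within a library does not depend on how the library is scaled. The log2 ratio of *Dagla* to *Cnr1* was -0.67 ± 0.23 (SD, n = 13) in D1 IPs and 0.00 ± 0.20 (SD, n = 15) in D2 IPs, against -0.69 and -0.84 in the inputs of the D1 and D2 line. The ratio of the synthase *Dagla* to the hydrolase *Mgll* was -0.57 ± 0.14 in D1 IPs and -1.0 ± 0.18 in D2 IPs. Of the hydrolases, *Mgll* to *Abhd6* stood at 1.55 ± 0.13 in D1 IPs, 1.94 ± 0.16 in D2 IPs and 2.17 and 2.16 in the inputs. *Dagla* to *Daglb* was 1.54 ± 0.13 in D1 IPs and 1.49 ± 0.11 in D2 IPs, a difference below the SD of either line. *Napepld* to *Faah* was -2.62 ± 0.16 in D1 IPs and -2.43 ± 0.25 in D2 IPs.

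With the difference between the lines left in, the levels of all members but *Mgll* were positively correlated with each other between libraries. Over the 28 IPs, which include both lines, the r of log2 CPM was 0.92 for *Cnr1* and *Faah*, 0.89 for *Cnr1* and *Napepld* and -0.70 for *Cnr1* and *Mgll*. *Abhd12* and *Faah* had 0.86, and *Napepld* and *Faah* 0.84. After each group's mean was taken off, these 5 values were 0.57, 0.67, -0.24, 0.50 and 0.48, and the highest r was that of *Daglb* and *Faah* (0.67). Not all members were then positively correlated. *Abhd6* had -0.18 with each of *Cnr1*, *Daglb* and *Napepld*, and *Dagla* had 0.07 with *Cnr1* and 0.06 with *Abhd6*. The genes most like a member over the 28 IPs, among 12502 genes, were *Nr2f1* (r = 0.98) and *Ncald* (0.97) for *Cnr1*, *Sstr3* (0.97) and *Olfm1* (0.97) for *Faah*, *Lpgat1* (0.92) and *Epha5* (0.92) for *Napepld*, and *Dgat2* (0.88) and *Kcnip2* (0.87) for *Mgll*. For *Abhd12* they were *Mgst3* (0.93) and *Sult4a1* (0.93), for *Dagla* *Adgrl1* (0.89) and *Pip5k1c* (0.85), for *Abhd6* *Mpst* (0.85) and *Rab3a* (0.84), and for *Daglb* *Ly6g6e* (0.81) and *C1ql3* (0.80). The points share the difference between the lines, so these values describe likeness of pattern and nothing further. With group means taken off, *Nr2f1* stayed at 0.87 with *Cnr1*.

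No member differed between stress groups in the IPs. At an adjusted p under 0.05, edgeR's quasi-likelihood test called 0 of 8 genes in each of the 6 pairwise comparisons of Con, Res and Sus within D1 IPs and within D2 IPs, and DESeq2 also called 0. The same rule called 0% of all genes in 5 of these 6 comparisons and 0.00703% in D1 Res vs Con. At an unadjusted p under 0.05, which 5.34% of all genes met in D1 Sus vs Con, 1 of the 8 passed in that comparison and 0 in the other 5. The share of all genes that passed was 2.11% in Res vs Con and 4.23% in Sus vs Res of D1 IPs, and 3.68%, 3.02% and 1.66% in Sus vs Con, Res vs Con and Sus vs Res of D2 IPs. The interaction terms, which test whether a stress difference differs between D1 and D2 IPs, called 0 of 8 genes, with 0% of all genes called, and 0 members passed unadjusted (1.82% of all genes did for Sus vs Con, 2.36% for Res vs Con and 2.03% for Sus vs Res).

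The 1 gene that passed unadjusted was *Napepld*. Its level was 5.21, 6.95, 7.80 and 7.56 CPM in D1 Con IPs and 6.57, 7.26, 10.99, 9.03 and 8.67 CPM in D1 Sus IPs. In 3 of the 5 Sus libraries it was above every Con library, and the groups overlapped. The log2 fold change of Sus vs Con was 0.30 (SE 0.14, 95% interval 0.01 to 0.60) with an edgeR adjusted p of 0.846. Beside it, the cortical markers had a median log2 fold change of 0.34 in the same comparison, with 0 of 4 called, and their part was not tested.

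*Cnr1* in D1 IPs differed by 0.08 on the log2 scale between Sus and Con (95% interval -0.17 to 0.34), and in D2 IPs by 0.06 (-0.19 to 0.30). Its 3 stress groups overlapped in each line. For *Mgll* the log2 fold change of Sus vs Con was -0.11 in D1 IPs and -0.08 in D2 IPs, for *Dagla* 0.04 and 0.01, and for *Faah* 0.12 and 0.04. None of these passed the test, adjusted or unadjusted.

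In the inputs, 0 of 8 genes differed between stress groups after adjustment, and 0% of 14820 genes were called. *Mgll* came nearest. Its level in the inputs of the D1 line was 166.0, 167.4 and 162.3 CPM in Con, 170.6, 159.6 and 183.2 CPM in Res, and 141.7, 125.5 and 155.2 CPM in Sus. In the D2 line it was 170.3, 159.9 and 156.5 CPM in Con, 169.5, 176.9 and 142.6 CPM in Res, and 127.1, 162.4 and 159.2 CPM in Sus. Over both lines together, the Sus inputs overlapped the Con inputs and the Res inputs for all 8 members. The groups did not overlap for 0.202% of all genes in Sus vs Con and 0.263% in Sus vs Res. The log2 fold change of *Mgll* over both lines was -0.17 for Sus vs Con (SE 0.067, edgeR adjusted p = 0.979) and -0.20 for Sus vs Res (edgeR adjusted p = 0.901). *Mgll* passed unadjusted in both comparisons, as 4.47% and 5.54% of all genes did, and *Abhd12* passed unadjusted in Sus vs Res (-0.09, edgeR adjusted p = 0.901). In Res vs Con no member passed unadjusted, where 3.23% of all genes did. The cortical markers had median log2 fold changes of -0.22 in Sus vs Con and -0.46 in Sus vs Res and 0 of 4 called in either, and their part was not tested. Their summed level overlapped between the groups, at 285 to 460 CPM in D1 Sus inputs and 69.3 to 1006 CPM in D2 Sus inputs against 239 to 1094 CPM and 358 to 678 CPM in Res.

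No member was called between the inputs of the D1 line and those of the D2 line (0.0202% of all genes were, and 5.20% passed unadjusted, with 0 members), and the ranges overlapped for all 8. *Cnr1* ran from 107.7 to 209.3 CPM (median 130.3) in D1 inputs and from 111.4 to 217.2 CPM (median 143.2) in D2 inputs, a log2 fold change of -0.12 (95% interval -0.40 to 0.17). *Faah* ran from 26.1 to 56.4 CPM and from 24.7 to 48.3 CPM (log2 fold change -0.13, 95% interval -0.41 to 0.16). These intervals do not reach the sizes of the differences between the IPs. Across the 18 inputs the summed cortical markers, which ran from 69.3 to 1094 CPM, had an r of 0.91 with *Faah*, 0.84 with *Abhd12*, 0.76 with *Cnr1*, 0.73 with *Abhd6*, 0.71 with *Mgll* and 0.58 with *Napepld*.

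The IPs were next compared with the inputs of the same line, which asks how far each gene's ribosome-bound mRNA in Cre-positive cells stands above its level in the whole tissue. Nearly all genes differ in such a comparison: edgeR called 81.9% of 15404 genes in the D1 line and 82.7% in the D2 line. Of the 8 members, 6 were higher in D1 IPs and 0 lower, where 39.2% of all genes were higher and 42.7% lower. In D2 IPs 4 were higher and 3 lower, where 37.8% of all genes were higher and 44.9% lower. The D1 IPs and D2 IPs entered both this and the comparison above, so the comparisons are not independent. With library totals in place of TMM the median of all genes moved from -0.04 to -0.23 in the D1 line and from -0.08 to -0.21 in the D2 line, and log2 fold changes here are relative to it.

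*Abhd6* and *Daglb* were higher in the IPs of both lines and did not overlap with the inputs. The IPs and inputs did not overlap for 3 of the 8 genes in each line. They did not overlap for 48.3% of all genes tested in the D1 line and 44.3% in the D2 line. *Abhd6* ran from 32.1 to 38.1 CPM in D1 inputs and from 30.5 to 37.4 CPM in D2 inputs, below all IPs, with log2 fold changes of 0.55 (SE 0.041) in the D1 line and 0.40 (SE 0.040) in the D2 line. *Daglb* ran from 22.02 to 28.8 CPM and from 22.9 to 27.0 CPM in the inputs, with log2 fold changes of 0.46 (SE 0.044) and 0.33 (SE 0.043). The edgeR adjusted p of *Abhd6* was 7.72e-16 in the D1 line and 5.88e-12 in the D2 line, and that of *Daglb* 1.41e-12 and 4.18e-09.

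*Cnr1* stood below its input in the D2 line. All 15 D2 IPs, at 71.3 to 105.9 CPM, were under all 9 D2 inputs, at 111.4 to 217.2 CPM, and the log2 fold change was -0.77 (SE 0.10, edgeR adjusted p = 8.6e-09). In the D1 line the IPs, at 120.0 to 233.4 CPM, overlapped the inputs, at 107.7 to 209.3 CPM, and the log2 fold change was 0.23 (SE 0.11, edgeR adjusted p = 0.0468). This D1 call was lost with DESeq2 (adjusted p = 0.0883), with RLE size factors (edgeR adjusted p = 0.0726), with genes of a mean of at least 50 counts (0.15, edgeR adjusted p = 0.197), with library totals, where the value was near 0 (0.038, edgeR adjusted p = 0.744), in the control libraries alone (edgeR adjusted p = 0.41), and on leaving out any 1 of 8 libraries, namely replicate 3 of the D1 Con, Res or Sus IPs, replicate 1 or 2 of the D1 Con or Res inputs, or D1 Sus input replicate 2.

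*Faah* and *Napepld* were also lower in D2 IPs than in D2 inputs. *Faah* had a log2 fold change of -0.48 in the D2 line (edgeR adjusted p = 4.32e-05) and 0.43 in the D1 line (edgeR adjusted p = 0.000343). *Napepld* had -0.48 (edgeR adjusted p = 1.26e-05) and 0.14 (edgeR adjusted p = 0.175, with -0.05 under library totals). The IPs and inputs of both genes overlapped in both lines.

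Of the remaining genes, *Dagla* was higher in D1 IPs (0.26, edgeR adjusted p = 1.14e-06) and in D2 IPs (0.10, edgeR adjusted p = 0.0422), but the D2 value turned to -0.03 under library totals and its call was lost with DESeq2 (adjusted p = 0.0563) and without D2 Con or D2 Res input replicate 3. With these included, the D2 result of *Dagla* lost its call or turned in 7 of 53 alternatives. *Abhd12* was higher in D1 IPs without overlap (0.26, edgeR adjusted p = 3.36e-10) and had 0.01 in the D2 line (edgeR adjusted p = 0.742), which turned to -0.11 under library totals and -0.07 with a filter at a mean of 50 counts. *Mgll* was higher in D2 IPs (0.19, edgeR adjusted p = 0.00155) and had -0.05 in the D1 line (edgeR adjusted p = 0.394). The D1 calls of *Dagla* and *Abhd12* and the D2 call of *Mgll* were also lost under library totals. For *Mgll* in the D1 line a call was gained with library totals (-0.24, edgeR adjusted p = 7.68e-05) and with genes of a mean of at least 50 counts (-0.13, edgeR adjusted p = 0.0205).

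**Figure D4:**
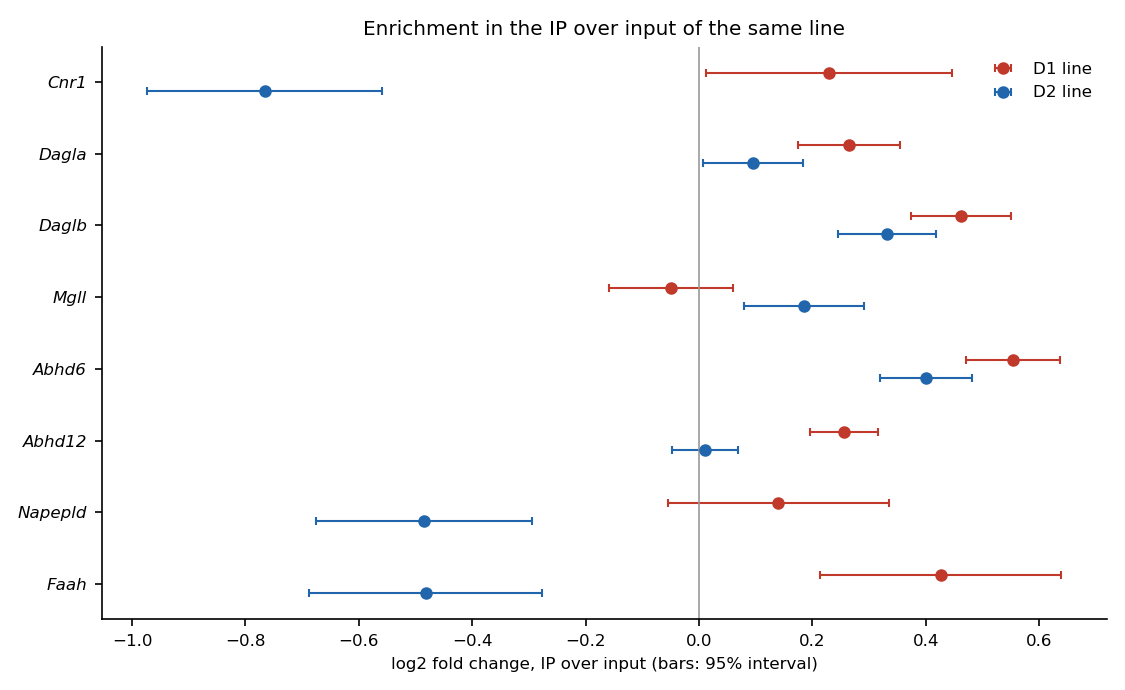
Log2 fold change of IP over input for each gene in the D1 line and the D2 line, with bars giving the 95% interval of the edgeR estimate. *Cnr1*, *Napepld* and *Faah* lie below 0 in the D2 line and above 0 in the D1 line, and *Daglb* and *Abhd6* lie above 0 in both.

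The difference between the lines in this enrichment was tested directly. It passed for 7 of 8 genes, where 25.5% of all genes were called. For *Cnr1* the D1 minus D2 difference in log2 fold change was 1.00 (SE 0.15, 95% interval 0.69 to 1.30), for *Faah* 0.91 (0.61 to 1.20) and for *Napepld* 0.62 (0.35 to 0.90). It was 0.24 for *Abhd12*, 0.17 for *Dagla*, 0.15 for *Abhd6* and -0.24 for *Mgll*, and *Daglb*, at 0.13, did not pass (edgeR adjusted p = 0.116). The values of *Dagla* (edgeR adjusted p = 0.0395) and *Abhd6* (0.0398) were lost under RLE size factors, library totals and DESeq2 and without any 1 of 33 (*Dagla*) or 35 (*Abhd6*) of the 46 libraries, and in the control libraries alone those of *Napepld* (0.64, edgeR adjusted p = 0.143) and *Mgll* (-0.28, edgeR adjusted p = 0.0994) were lost as well. That of *Abhd6* was also lost with the pool as a block (0.14, edgeR adjusted p = 0.192, in 36 libraries of 18 pools). The cortical markers moved with these values too. In the D2 line 4 of 4 were lower in IPs than in inputs (median log2 fold change -1.62), in the D1 line 1 of 4 was higher (median 0.73), and 4 of 4 differed between the lines (median 2.33). Their part was not tested.

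The libraries labelled Sirt1-KO were compared with the 4 D1 Con IPs in the same table. *Sirt1* itself was at 13.0, 16.6, 14.8 and 14.4 CPM in D1 Con and 15.1, 16.2, 13.2 and 10.2 CPM in the libraries labelled Sirt1-KO, with overlapping ranges and a log2 fold change of -0.10 that was not called. A count over the whole gene includes reads outside a floxed part, so it does not check the deletion. No member was called after adjustment (1.66% of all genes were). Unadjusted, *Mgll*, *Faah* and *Napepld* passed, 3 of 8, where 17.3% of all genes did, and with DESeq2 2 were called.

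*Mgll* came nearest. It was at 165.9, 145.7, 135.0 and 144.2 CPM in D1 Con and at 125.0, 116.6, 112.2 and 128.2 CPM in the libraries labelled Sirt1-KO. Every library labelled Sirt1-KO was below every D1 Con library. It was the 1 member of 8 whose groups did not overlap, and 9.55% of all genes tested did not overlap. The log2 fold change was -0.29 (SE 0.070, 95% interval -0.45 to -0.14) with an edgeR adjusted p of 0.0595. DESeq2 called it (adjusted p = 0.00735), as did edgeR without Sirt1-KO replicate 5 (adjusted p = 0.0196).

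*Faah* was at 32.2, 48.8, 42.6 and 47.0 CPM in D1 Con and at 56.2, 72.2, 76.0 and 43.8 CPM in the libraries labelled Sirt1-KO. The first 3 of those were above all D1 Con libraries and the last, replicate 5, was inside their range. Its log2 fold change was 0.55 (SE 0.17, edgeR adjusted p = 0.122), and it was called with DESeq2 (adjusted p = 0.0232) and without Sirt1-KO replicate 5 (edgeR adjusted p = 0.0145). *Napepld* had 0.33 (SE 0.15, edgeR adjusted p = 0.276). *Cnr1* was at 150.7, 227.0, 221.5 and 111.7 CPM in the libraries labelled Sirt1-KO, a range that covers that of D1 Con, 113.5 to 163.7 CPM, with a log2 fold change of 0.24 (95% interval -0.19 to 0.68). *Cnr1* was called in 1 of 14 alternatives, the replicate block (edgeR adjusted p = 0.000169). That block also left out Sirt1-KO replicate 5 and D1 Con IP replicate 2. *Dagla*, *Daglb*, *Abhd6* and *Abhd12* had log2 fold changes of 0.04, 0.15, 0.06 and 0.06.

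**Figure D5:**
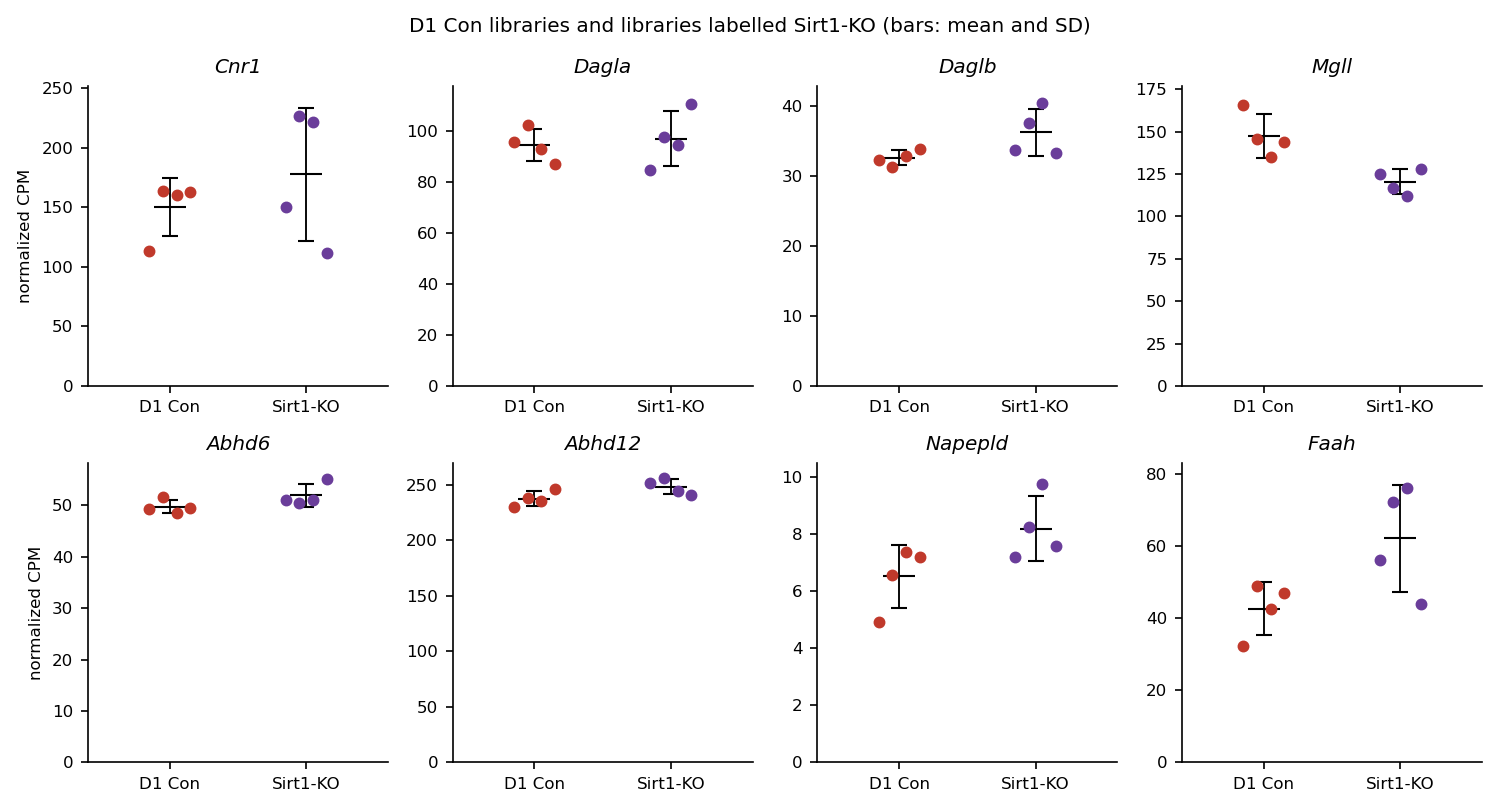
Normalized level (CPM, y axis from 0) of the 8 genes in the 4 D1 Con IPs and the 4 libraries labelled Sirt1-KO, with mean and SD. *Mgll* is the gene whose groups do not overlap, at 135.0 to 165.9 CPM against 112.2 to 128.2 CPM.

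The cortical markers stood at a summed 827 to 1583 CPM in the libraries labelled Sirt1-KO and 366 to 1013 CPM in D1 Con, with a median log2 fold change of 0.89 and 0 of 4 called. The D1-MSN markers summed to 896 to 1121 CPM against 1192 to 1468 CPM, with 1 of 4 called lower. The 6 GABAergic interneuron markers summed to 151 to 177 CPM against 110 to 142 CPM, with 2 of 6 called higher, and the 4 cholinergic markers to 4.00 to 8.18 CPM against 9.41 to 11.2 CPM, with 1 called lower. Their part in the values of *Mgll* and *Faah* was not tested, and the labels do not say whether the Sirt1-KO libraries were made together with the D1 Con libraries.

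The rest of the pathway was read from a list of 35 other genes, of which 24 were expressed well enough to be tested in the IPs. Between D1 and D2 IPs 9 of the 24 were called (37.5%, near the 40.8% of all genes), with 5 higher and 4 lower in D1 IPs and a median log2 fold change of 0.05. Higher were *Cnrip1*, which encodes a protein that binds the CB1 tail (0.40), the phospholipase C gene *Plcb4* (0.29) and *Abhd4*, which takes part in another route to anandamide (0.18). Lower were *Fabp5*, an intracellular carrier of anandamide (-0.40), and the phospholipase C genes *Plcb3* (-0.32) and *Plcb1* (-0.18). In the group of 8 Gq pathway genes, 1 was higher and 2 were lower.

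Against the inputs, 24 of 27 tested pathway genes were called in each line, 11 higher and 13 lower in D1 IPs and 10 higher and 14 lower in D2 IPs, where 81.9% and 82.7% of all genes were called. Of the 8 Gq genes 5 were called higher in each line and 2 (D1) or 3 (D2) lower, where 39.2% and 37.8% of all genes were higher and 42.7% and 44.9% lower. *Plcb1* was at 0.91 in the D1 line and 1.09 in the D2 line, and the muscarinic receptor gene *Chrm1* at 0.93 in both. The glutamate receptor gene *Grm5*, at 0.59 in the D1 line and 0.73 in the D2 line, completed the leading 3. Farthest below their inputs were *Pla2g16* (-3.81 and -4.00) and the astroglial carrier gene *Fabp7* (-2.80 and -3.08), together with the lipoxygenase gene *Alox12* in the D1 line (-2.92) and the nuclear receptor gene *Ppara* in the D2 line (-2.96). In the Sirt1-KO libraries edgeR called 0 of 24 after adjustment (1.66% of all genes were) and 8 passed unadjusted (17.3% of all genes did), and none was called between stress groups after adjustment. *Cnr2*, the gene for the second cannabinoid receptor, had 0 to 4 counts in each IP and 2 to 9 counts in each input, and it was too low to be tested.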

How the data were processed

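Values were deposited as counts, which the authors made from paired-end reads with cutadapt (trimming), STAR (alignment to mm10) and HTSeq (reads per gene) (versions and annotation are not given in the sources used here). The counts are not normalized. Samples were grouped by their deposited labels, and 2 columns with no matching label (D1 Con 5, D1 Res 5) were left out. Of the reads, 18.0% to 28.3% in IPs and 35.9% to 40.0% in inputs fell in 5 entries that name no gene, and these were removed. The knockout table repeats the 4 D1 Con libraries.

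Quasi-likelihood tests used edgeR 4.0.16 in R 4.3.3 with TMM factors and filterByExpr (minimum count 10, minimum total 15) on 14224 genes of 28 IPs, 15404 genes of 46 IPs and inputs, 14820 genes of 18 inputs (line and stress as terms) and 13626 genes of the knockout table, with Benjamini-Hochberg adjustment. Levels are TMM CPM, and correlations used log2 CPM with a prior count of 2. Per the labels each library is a pool of 2 mice. No 2 replicates held like counts (lowest chi-square per gene 3.51). Intervals cover the spread between libraries, not preparation batches, which the labels do not give.

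The members and gene lists were chosen with earlier results of these data known, and some list genes are not reported here. Named were all members, up to 3 pathway genes per direction with the largest fold among those called in each comparison, and the 2 genes most correlated with each member. Alternatives were RLE factors, library totals, other filters, DESeq2 1.42.0, a replicate block, only the groups compared, control libraries only, transcript length in place of exon length, and each library left out. IPs and inputs of the same number share a homogenate and so were paired for a pool block. Their deviations from group means had an r of 0.03 to 0.54 in D1 Con and -0.22 to 0.16 in D1 Res. In D1 Sus r was 0.18 to 0.23 and in D2 Con -0.14 to -0.03. In D2 Res it was -0.34 to 0.18 and in D2 Sus -0.14 to 0.67. Deviations of same-numbered D2 Con and D2 Res IPs from their group means correlated in all 5 pairs (r 0.16 to 0.29). Those of D1 Con inputs with D1 Res (0.11 to 0.61) and D1 Sus inputs (0.11 to 0.31) did so too. The main tests used no pairing. The replicate block joined libraries of the same number across the groups compared, whether or not their deviations correlated. For Sirt1-KO vs D1 Con it kept only the numbers present in both groups. IPs of replicate 5 had 24.5% to 28.3% of reads in no gene outside the Sirt1-KO libraries, and 23.8% in Sirt1-KO. Replicate 5 was not the highest in every group, as D2 Con IP replicate 2 had 27.0% and replicate 5 of that group 26.3%. Programs were tested on simulated data. Promoters are from RefSeq.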

Additional observations from a re-analysis of the deposited data

Results flagged for a closer look

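The level of *Cnr1* in D1 Con IP replicate 1, 120.0 CPM, lay apart from the other 3 D1 Con IPs, at 169.8 to 172.8 CPM, and this library also had the lowest cortical marker sum of the D1 IPs. *Abhd6* in Sirt1-KO replicate 5, at 55.2 CPM, lay apart from the other 3 libraries of its group, at 50.4 to 51.0 CPM. These were 2 of 56 groups of 4 or 5 libraries examined for a distant library, and chance gives about 1 in 20.

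The difference between IP and input differed between the D1 and D2 line by the interaction test for 7 of 8 genes, where 25.5% of all genes were called. On the log2 scale D1 minus D2 was 1.00 for *Cnr1*, 0.91 for *Faah*, 0.62 for *Napepld*, 0.24 for *Abhd12*, 0.17 for *Dagla*, 0.15 for *Abhd6* and -0.24 for *Mgll*. The call of *Dagla* was lost in 37 of 53 alternatives and that of *Abhd6* in 41.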

How the results depend on the processing

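The 8 calls between D1 and D2 IPs held under every scaling, filter, DESeq2, the replicate block and each left-out library. With a fold change over 1.5 required, members called were 2 in all IPs, 2 in Con, 2 in Res and 3 in Sus. The calls in Con ran from 3 to 5 over single left-out libraries, with 3 without D1 Con IP replicate 3 or 4. Unadjusted, 1 member passed in D1 IP Sus vs Con, 1 in input Sus vs Con and 2 in input Sus vs Res. In control libraries only, 3 members (*Cnr1*, *Faah*, *Abhd12*) and 5.09% of all genes differed between lines in IP against input, and *Napepld*, *Mgll*, *Dagla* and *Abhd6* lost their calls. Directions turned for *Napepld* in D1 IP vs input (-0.053 under library totals), *Dagla* in D2 IP vs input (-0.028 under library totals), *Abhd12* in D2 IP vs input (-0.11 under library totals, -0.066 with a mean of at least 50 counts) and *Dagla* in Sirt1-KO vs D1 Con (-0.00031 under library totals, from -0.037 to 0.093 over left-out libraries, below 0 without D1 Con IP replicate 4 or Sirt1-KO replicate 5). Sirt1-KO members called were 1 under library totals, 1 with all genes that have a count, 2 with DESeq2 and 3 with the replicate block, and 0 to 2 over left-out libraries. Over all genes 226 were called there, 741 with DESeq2, 1629 (11.7%) with the block and 41 to 1020 over left-out libraries. The block kept only replicates 1, 3 and 4 of each group, so Sirt1-KO replicate 5 and D1 Con IP replicate 2 were left out as well. Its counts therefore do not show the effect of blocking alone.

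Replicate numbers of Sirt1-KO and D1 Con libraries do not pair (r of deviations -0.01 to 0.08). Between IP groups r ran from -0.25 to 0.45, and D2 Con and D2 Res were the pair of groups with every r over 0.1. With the replicate block, members called between D1 and D2 IPs were 8 over all IPs, 5 in Con, 7 in Res and 7 in Sus, where 41.7%, 15.7%, 19.9% and 22.02% of all genes were called. The block called 0 members between stress groups. With the pool as a block, paired IPs and inputs kept 6 calls in the D1 line, 7 in the D2 line and 6 for their difference, and only the call of *Abhd6* in that difference changed. Of all genes, 81.2%, 81.4% and 22.1% were called in these 3 comparisons.

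Causes of these shifts were not tested. Over the log2 fold changes followed through the alternatives, 2438 kept direction and call, 117 lost a call, 41 gained one and 7 reversed. For stress comparisons only members that passed unadjusted were followed, and D1 inputs against D2 inputs were not. Most alternatives were single left-out libraries. Depth limits *Napepld* most, with 86 to 308 counts per library.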
